A study of Oryctolagus cuniculus with 134 samples.

Results

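The 7 genes MYH11, ACTA2, LMOD1, SMTN, MYOCD, TAGLN and CNN1 of the smooth muscle contractile programme were looked up by symbol in the gene count table of rabbit heart tissue, and the first 5 had a row. TAGLN and CNN1 had no row by that name and were not analysed here. The whole table held 29587 genes, 14716 of them with a symbol. The genes carried the Ensembl identifiers ENSOCUG00000013450 (MYH11), ENSOCUG00000008193 (ACTA2), ENSOCUG00000007492 (LMOD1), ENSOCUG00000011904 (SMTN) and ENSOCUG00000009225 (MYOCD).

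Smooth muscle shortens when myosin filaments pull on thin filaments of smooth muscle actin, and in large arteries the medial smooth muscle cells hold this apparatus at high abundance. Many of its genes carry binding sites for serum response factor (SRF), and myocardin is the coactivator that turns SRF towards them. In atherosclerosis, medial cells are known to lower these genes while taking on matrix-producing or macrophage-like features, and this change of state is called phenotypic modulation. Heart valve leaflets are built mainly of interstitial fibroblast-like cells under a sheet of endothelium, with few smooth muscle cells, and an interstitial cell that switches on ACTA2 is called a myofibroblast.

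RNA was sequenced from an aorta ring and 4 valves (aortic, mitral, tricuspid and pulmonary) of 27 male New Zealand White rabbits, which were 12 weeks old at the start and were followed for 16 weeks. Ctrl rabbits ate chow without added vitamin D2. CHT rabbits received 0.3% cholesterol in the diet, and Lard rabbits 5% lard, and both groups also received vitamin D2 at 25000 U per day per 2.5 kg for the first 15 days. IR/CHT rabbits received the CHT regimen and, after 8 weeks of it, X-rays to the heart at 24 Gy in 3 fractions of 8 Gy, aimed at the aortic valve and the thoracic aorta. Each tissue had 7 Ctrl, 6 CHT, 7 Lard and 7 IR/CHT libraries, except the mitral valve with 6 Ctrl libraries. No group on vitamin D2 alone or on X-rays alone was among these libraries, so the diets and vitamin D2 cannot be told apart against Ctrl. The regimens of IR/CHT and CHT differed by the irradiation. IR/CHT and CHT rabbits also carried separate series of animal numbers, whose meaning is not given. The irradiation and that series cannot be told apart. All 3 treated groups of a tissue were compared with the same Ctrl libraries.

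Depth ran from 13564979 to 50577676 counted read pairs per library, with a median of 18235577. The aorta was sequenced on plate 2 alone and the CHT samples of both left-sided valves on plate 1 alone, while the other groups of those valves were split over both plates. The profile of each library was set against the mean of each tissue over 10337 genes, and 19 libraries correlated more with another tissue than with their own, 7 of them by over 0.03 in Pearson's r. These 7 were the Ctrl tricuspid valve library L168, which was nearest to the aortic valve (0.891 against 0.714), the Ctrl aortic valve library L277, the IR/CHT mitral valve library L195, the IR/CHT tricuspid valve library L197, the IR/CHT pulmonary valve library L275, and the Lard pulmonary and tricuspid valve libraries L271 and L272, which came from the same rabbit and were each nearest to the other tissue. The tests of the 5 genes that rest on these 7 discordant libraries were computed with and without them, and the other 12 were kept. None of the 7 was from the aorta, but 1 of the 12 was, the IR/CHT library L566 (0.844 to the aortic valve against 0.835 to the aorta). L566 was also the aorta library lowest in MYH11, at 9030.4 counts-per-million (CPM), and 1 valve library, from an IR/CHT pulmonary valve, was above that level. The treatment comparisons of the 5 genes in the aorta that change without L566 are named with their results.

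Levels are given as CPM on library sizes scaled by the trimmed mean of M values (TMM), as the lowest, the median and the highest library of a group. CPM are not divided by gene length, so levels are compared between tissues and treatments for 1 gene. Where the log2 levels of a pair of genes are subtracted within a library, only the change of that difference between groups is read, not its size. Changes are log2 fold changes ± standard error (SE) from edgeR's quasi-likelihood test, with p-values adjusted by Benjamini and Hochberg over all genes tested in that fit. A gene is said to rise or fall where the adjusted p was under 0.05 and the fold change over 1.5. In bulk tissue, fewer cells of a type and less RNA per cell cannot be told apart.

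On chow, all 5 genes were higher in the aorta than in any valve. MYH11, the heavy chain of the smooth muscle myosin motor, stood at 65578, 84877 and 91903 CPM in the 7 chow aortas and took 5.48% to 7.30% of the reads of a library. In the aortic valve its level was 131, 191.9 and 515 CPM, against 72.0, 133 and 684 in the pulmonary, 43.9, 49.1 and 97.8 in the tricuspid and 23.5, 36.6 and 55.0 in the mitral valve. No valve library on chow came near the lowest aorta. The log2 difference from the aorta, with the rabbit as a block, was -8.29 ± 0.47 (SE) in the aortic, -8.61 ± 0.48 in the pulmonary, -10.49 ± 0.51 in the tricuspid and -11.14 ± 0.56 in the mitral valve.

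ACTA2 encodes smooth muscle alpha-actin, the thin filament protein used to stain both smooth muscle and myofibroblasts. It stood at 10059, 12954 and 14084 CPM in chow aorta, against 133, 198.4 and 264.2 in the aortic, 112, 175.6 and 398 in the pulmonary, 34.4, 78.1 and 103 in the mitral and 22.0, 27.9 and 114 in the tricuspid valve. Reads of the near-identical actins ACTG2, ACTC1 and ACTA1 could be divided among these genes, so the ACTA2 level is uncertain to that extent. LMOD1, leiomodin 1, which nucleates actin filaments in smooth muscle, stood at 924, 1469 and 2282 CPM in the aorta, 32.0, 68.8 and 185.7 in the aortic, 10.5, 26.2 and 40.7 in the pulmonary, 13.1, 17.5 and 45.6 in the mitral and 5.07, 10.5 and 67.4 in the tricuspid valve. SMTN, smoothelin, is an actin-binding protein of contractile smooth muscle. Its level was 587, 1229 and 2353 CPM in the aorta, 38.8, 170 and 482 in the aortic, 19.3, 48.5 and 157.9 in the mitral, 9.95, 14.9 and 209 in the tricuspid and 9.28, 13.5 and 24.0 in the pulmonary valve. MYOCD, which encodes myocardin and is also made by heart muscle cells, stood at 377, 545.1 and 727 CPM in the aorta and 6.84, 46.1 and 74.1 in the tricuspid, 9.89, 24.5 and 33.9 in the aortic, 7.88, 16.2 and 40.4 in the pulmonary and 1.61, 9.43 and 12.2 in the mitral valve.

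**Figure D1:**
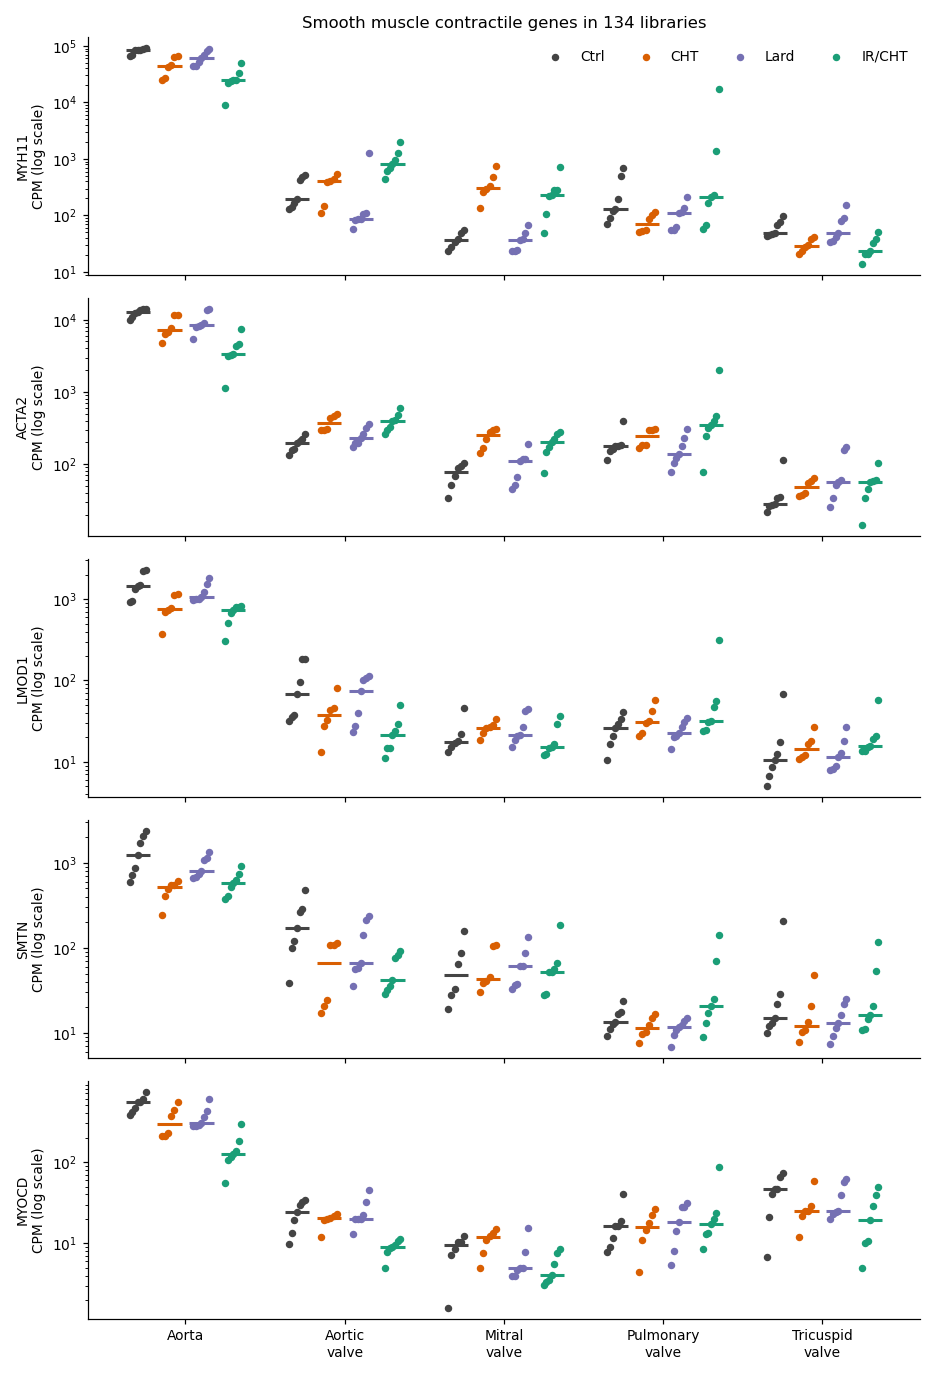
Level of MYH11, ACTA2, LMOD1, SMTN and MYOCD (1 panel each) in every library as CPM on a log axis, by tissue and, within a tissue, by treatment in colour; points are libraries and bars are group medians. On chow (Ctrl) every aorta library stands above all valve libraries in each panel, and within the aorta the IR/CHT libraries reach down to 9030.4 CPM of MYH11. The highest pulmonary valve point of MYH11, at 17326 CPM, is an IR/CHT library.

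All 5 were lower in each valve than in the aorta by the test, beside 22.3% of all genes called lower in the aortic, 14.2% in the mitral, 21.5% in the pulmonary and 13.9% in the tricuspid valve. The 20 log2 differences ran from -11.14 for MYH11 in the mitral valve to -2.86 for SMTN in the aortic valve, and all 20 calls held within plate 2, without the block and without the 7 discordant libraries. Genes around them in the pathway were lower as well. Of 15 filament and anchoring genes tested, 14 were lower in each valve, with a median log2 difference of -3.15 in the aortic valve against 0.076 over all genes; LPP and VCL, which anchor actin at adhesions, differed there by -3.22 ± 0.11 and -3.14 ± 0.12. Among 19 regulators of contraction, 15 to 18 were lower, led by MRVI1, a target of nitric oxide signalling, at -4.66 ± 0.19 in the aortic valve, while the endothelin receptor EDNRA was higher there by 1.13 ± 0.26. The 10 genes of SRF and myocardin control divided: MRTFB, another SRF coactivator, was higher in all 4 valves (0.98 ± 0.12 in the aortic valve) and HEY2, a Notch target, lower in all 4 (-1.26 ± 0.14).

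The order of the valves differed from gene to gene. For MYH11, the aortic and pulmonary valves, first among the valves, differed by 0.32 ± 0.36, edgeR adjusted p = 0.447, the pulmonary valve was higher than the tricuspid by 1.88 ± 0.37, edgeR adjusted p = 0.000741, and the mitral and tricuspid valves, at the bottom, differed by -0.66 ± 0.36, edgeR adjusted p = 0.213. In ACTA2 the aortic and pulmonary valves again differed by less than the spread (0.051 ± 0.27, edgeR adjusted p = 0.881), and the mitral valve was lower than the pulmonary (-1.28 ± 0.29, edgeR adjusted p = 0.00184) and higher than the tricuspid (1.04 ± 0.30, edgeR adjusted p = 0.0203). LMOD1 separated the aortic from the pulmonary valve (1.69 ± 0.35, edgeR adjusted p = 0.000246), and its lower neighbours, pulmonary with mitral and mitral with tricuspid, did not pass the test. These valve pairs stood against a background of 50.9% of all genes called between the aortic and pulmonary, 9.82% between the pulmonary and tricuspid, 10.8% between the mitral and tricuspid and 29.1% between the mitral and pulmonary valves.

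For SMTN the aortic and mitral valves did not pass (1.51 ± 0.57, edgeR adjusted p = 0.107), nor did the mitral and tricuspid or the tricuspid and pulmonary valves, although the aortic valve was higher than the pulmonary by 3.57 ± 0.59, edgeR adjusted p = 3.26e-05 and the mitral higher than the pulmonary by 2.06 ± 0.57, edgeR adjusted p = 0.0068. MYOCD was the exception in its order, with the tricuspid valve in second place: the aortic valve was lower than the tricuspid by -0.82 ± 0.35, edgeR adjusted p = 0.049, the aortic and pulmonary valves differed by 0.44 ± 0.35, edgeR adjusted p = 0.281, the mitral valve was lower than the pulmonary by -1.16 ± 0.39, edgeR adjusted p = 0.0201 and lower than the tricuspid by -2.42 ± 0.39, edgeR adjusted p = 0.00028. The aortic against tricuspid call was lost under 4 of the alternatives. Summed heart muscle markers reached 47056 CPM in chow tricuspid valves, from 672, against 213 to 13088 in aortic and 194.6 to 2575 in mitral valves, and their part in the MYOCD level was not tested. Between the aortic and mitral valves 4 of the 5 were called, all higher in the aortic valve, beside 3.58% of all genes, and between the aortic and tricuspid valves all 5, beside 42.4%, with 4 higher in the aortic valve. Without the 7 discordant libraries, SMTN also passed between the aortic and mitral valves (1.93), and LMOD1 (1.12) and SMTN (1.85) passed between the mitral and tricuspid valves, which brought the members called for that pair from 2 to 4. In those fits 24.9% of all genes were called between the aortic and mitral and 27.4% between the mitral and tricuspid valves. Without the rabbit block the mitral and tricuspid count was 1.

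In the aorta, 3 of the 5 contractile genes fell on the cholesterol regimen and all 5 fell where irradiation was added to it. MYH11 was 65578, 84877 and 91903 CPM in Ctrl, 25329, 44351 and 65662 in CHT, 43643, 60606 and 88917 in Lard and 9030.4, 24900.2 and 50536 in IR/CHT aortas. All 7 IR/CHT libraries lay below every Ctrl library, and 5 of 6 CHT libraries did. The change was -0.83 ± 0.26, edgeR adjusted p = 0.0192, in CHT, or 1.78-fold lower, and -1.54 ± 0.26, edgeR adjusted p = 2.2e-05, in IR/CHT, or 2.90-fold lower. The CHT call was lost without CHT library L572 (edgeR adjusted p = 0.0589) or L574 (edgeR adjusted p = 0.0589).

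ACTA2 followed the same order, at 10059, 12954 and 14084 CPM in Ctrl, 4742, 7209 and 11559 in CHT, 5494, 8338 and 14086 in Lard and 1147, 3327 and 7396 in IR/CHT. Again the IR/CHT and Ctrl libraries did not overlap, while the CHT and Lard ranges reached into the Ctrl range. It fell by 1.64 ± 0.26 on the log2 scale in IR/CHT (edgeR adjusted p = 1.42e-05), and its difference in CHT, -0.62 ± 0.27, did not pass (edgeR adjusted p = 0.0843), although it did without CHT library L560 (-0.74), CHT library L573 (-0.74) or IR/CHT library L566 (-0.62).

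Myocardin fell furthest under the combined treatment. MYOCD was 377, 545.1 and 727 CPM in Ctrl, 207, 296 and 541.4 in CHT, 277.4, 301 and 593 in Lard and 55.2, 126 and 294 in IR/CHT. No IR/CHT library reached the lowest Ctrl library. The log2 change was -1.80 ± 0.27, edgeR adjusted p = 6.44e-06, in IR/CHT and -0.64 ± 0.28, edgeR adjusted p = 0.0823, in CHT, where leaving out CHT library L560 (-0.83) or IR/CHT library L579 (-0.64) brought it past the threshold.

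LMOD1 and SMTN fell in CHT and in IR/CHT by amounts closer to each other. LMOD1 was 924, 1469 and 2282 CPM in Ctrl, 375, 759 and 1143 in CHT, 974, 1056 and 1817 in Lard and 304, 733 and 824 in IR/CHT, with changes of -0.90 ± 0.26, edgeR adjusted p = 0.0103, in CHT and -1.15 ± 0.25, edgeR adjusted p = 0.000421, in IR/CHT. SMTN was 587, 1229 and 2353 CPM in Ctrl, 241.2, 519.7 and 602 in CHT, 667, 799 and 1325 in Lard and 372, 586 and 909 in IR/CHT, with changes of -1.51 ± 0.30, edgeR adjusted p = 0.000421, in CHT and -1.14 ± 0.28, edgeR adjusted p = 0.00154, in IR/CHT. For LMOD1 the IR/CHT range lay below all Ctrl libraries, whereas 3 of 7 IR/CHT libraries of SMTN lay within the Ctrl range.

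Counted over the 5, 3 fell in CHT beside 5.18% of all genes called lower, and all 5 fell in IR/CHT beside 12.2%. Their median log2 change was -0.83 and -1.54, against -0.039 and 0.0033 over all genes tested. In 4 of 5, all IR/CHT libraries lay below all Ctrl libraries, as in 8.34% of all genes tested. With Lard, edgeR called 0 of the 5, beside 2.61% of all genes, with changes from -0.57 to -0.31; 1 of 5 had an unadjusted p under 0.05, and DESeq2 called 0. The 5 IR/CHT calls held in every refit that left out 1 library.

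In the aorta MYOCD was lower in IR/CHT than in CHT by -1.16 ± 0.28, edgeR adjusted p = 0.0432, and it was the only call of edgeR among the 5, beside 0.596% of all genes. With no filter (edgeR adjusted p = 0.0748) or the 2 groups alone (edgeR adjusted p = 0.102) it was lost, and DESeq2 called MYOCD and ACTA2. The other edgeR values were -1.02 ± 0.27, edgeR adjusted p = 0.0625, for ACTA2, -0.71 ± 0.26, edgeR adjusted p = 0.132, for MYH11, -0.25 ± 0.25 for LMOD1 and 0.37 ± 0.29 for SMTN. The MYOCD call was close to the threshold: the adjusted p rose above 0.05 in 13 of the 27 refits that left out 1 library (CHT libraries L560, L561 and L573, Ctrl libraries L553 and L570, Lard libraries L562, L575 and L577, and IR/CHT libraries L565, L566, L567, L581 and L582), up to 0.168 without CHT library L560, where the log2 change was -0.97. Without IR/CHT library L579, ACTA2 (-1.24) and MYH11 (-0.92) passed as well, and without CHT library L574 ACTA2 did (-1.13).

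**Figure D2:**
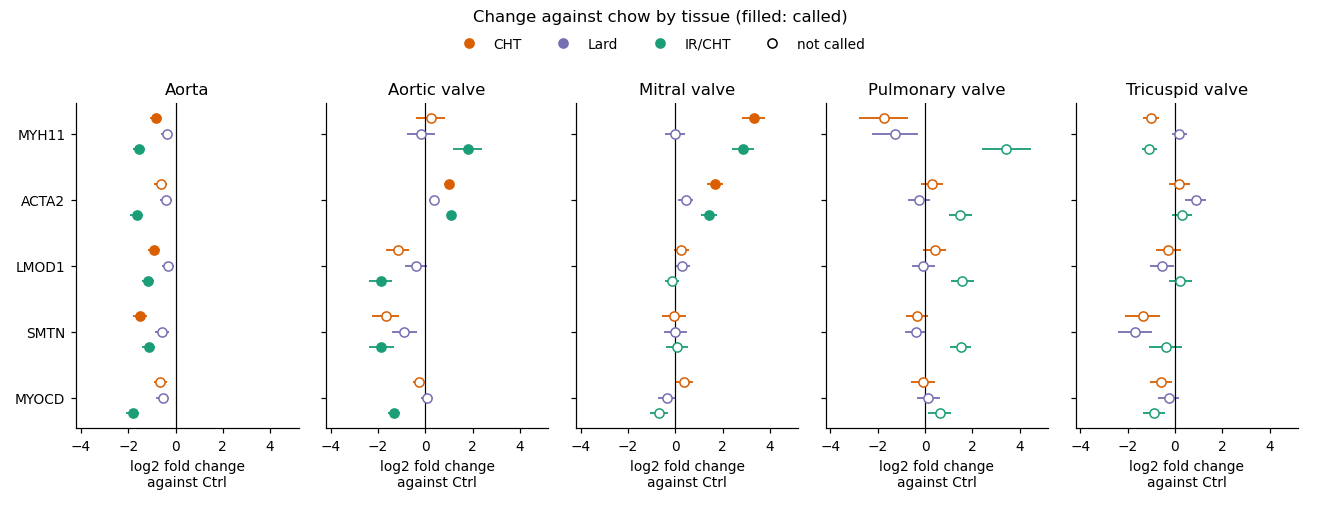
Log2 fold change against Ctrl (x axis) of the 5 genes (y axis), 1 panel per tissue and 1 colour per treatment; bars are the standard error and filled points passed the threshold. In the aorta the filled points lie left of 0, in the aortic valve ACTA2 and MYH11 lie right of 0 and LMOD1, SMTN and MYOCD left of it in IR/CHT, and in the mitral valve the 2 filled genes are MYH11 and ACTA2, at 3.32 and 1.70 in CHT.

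Other parts of the contractile apparatus fell with the 5 genes in the aorta. Beside the 5.18% of all genes called lower in CHT and 12.2% in IR/CHT, 7 and 13 of 15 filament and anchoring genes fell and none rose, with a median log2 change of -1.13 in IR/CHT. Among the steepest by p in IR/CHT were NEXN, nexilin, an actin-binding protein (-1.66 ± 0.24), and TPM1, a tropomyosin (-1.35 ± 0.21). Of 19 regulators of contraction, 9 fell in CHT and 13 in IR/CHT, among them KCNMA1, the pore of the large-conductance potassium channel (-1.70 ± 0.21 in IR/CHT), PRKG1, the cGMP-dependent kinase that relaxes smooth muscle (-1.58 ± 0.21), and PPP1R12B, a subunit of myosin phosphatase (-1.33 ± 0.19). The endothelin receptor EDNRA was the 1 regulator that rose in both (0.86 ± 0.30 and 0.97 ± 0.29), and EDNRA also rose with Lard (1.30 ± 0.29). All calls with Lard in the aorta, those below included, were lost with the 2 groups alone, where edgeR called 0 genes in place of 386.

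Of 10 genes that control SRF and myocardin, edgeR called 0 in CHT, with 3 at an unadjusted p under 0.05, and in IR/CHT 3 fell, beside the 12.2% of all genes, TEAD1 (-0.87 ± 0.12), HEY2 (-1.09 ± 0.20) and KLF5 (-0.79 ± 0.17), and 1 rose, MRTFA, an SRF coactivator (1.02 ± 0.35). On the list of genes known from modulated smooth muscle, 9 of 14 rose in CHT, beside 14.2% of all genes called higher, and 9 in IR/CHT, beside 22.2%, led by COL8A1, a collagen made by migrating smooth muscle cells (4.11 ± 0.51 in IR/CHT), LGALS3, which macrophages also make (2.52 ± 0.37), and TPM4, a cytoskeletal tropomyosin (1.04 ± 0.16), and VIM fell in IR/CHT (-0.61 ± 0.13). With Lard, where no contractile gene was called, 2 of these 14 rose, beside 2.57% of all genes, COL8A1 (2.61 ± 0.48) and SPP1, osteopontin (3.15 ± 0.60), both lost with the 2 groups alone.

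Markers of other cells moved with these changes in the aorta. Of 12 macrophage markers, 10 rose in CHT, 7 in Lard (0 with the 2 groups alone) and all 12 in IR/CHT, where 14.2%, 2.57% and 22.2% of all genes were called higher, and their summed level was 69.8 to 298 CPM in Ctrl, 526 to 1349.8 in CHT, 198.3 to 532 in Lard and 797 to 2712 in IR/CHT, with none of the 12 at 0 in any of these libraries. Of 9 endothelial markers 8 rose in CHT and in IR/CHT, and their sum went from 113 to 226 CPM in Ctrl to 257.1 to 1141 in IR/CHT, and the fibroblast list summed to 6569 to 13154 CPM in Ctrl and 11635 to 22492 in IR/CHT. Markers of mural cells, the pericytes and smooth muscle of vessels, summed to 5180.4 to 7433 CPM in Ctrl, 2118 to 4592 in CHT, 3170 to 5698 in Lard and 1232 to 3519.9 in IR/CHT. In IR/CHT, RGS5 was among the 4 of 9 that fell (-1.68 ± 0.28), beside 12.2% of all genes called lower. The part of a changed cell makeup in the fall of the contractile genes was not tested.

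**Figure D3:**
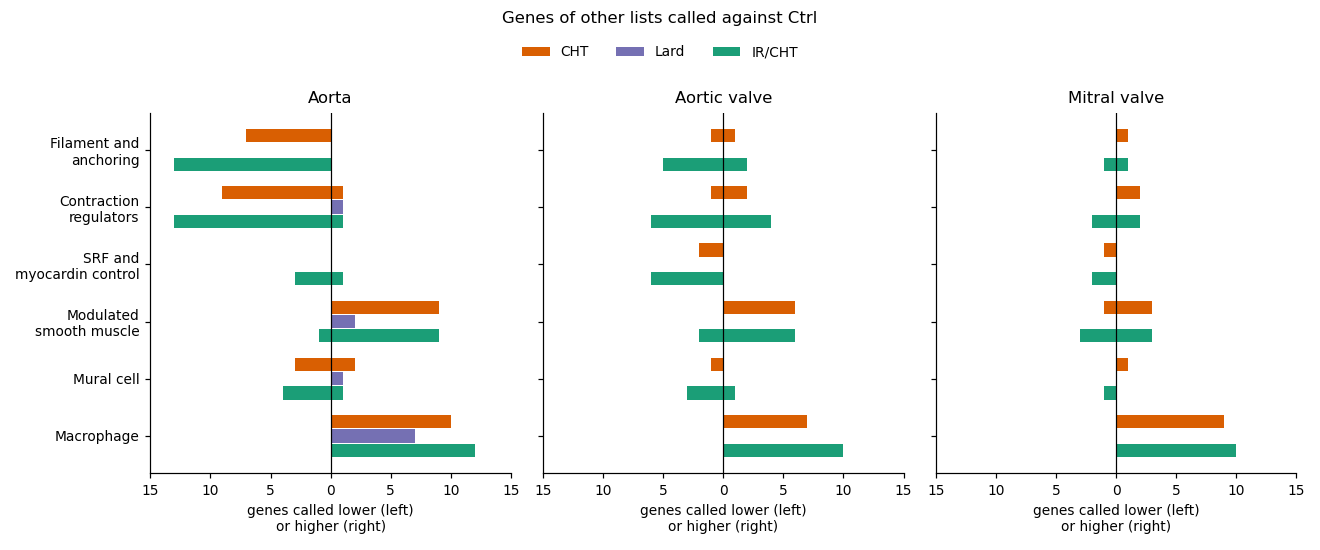
Number of genes of 6 other lists called lower (left of 0) or higher (right of 0) against Ctrl, for CHT, Lard and IR/CHT in aorta and in both left-sided valves. In IR/CHT aorta the bars reach 13 genes lower for the filament and regulator lists and 12 higher for the macrophage list, and in the mitral valve at most 3 genes are called in 1 direction outside the macrophage list.

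In the aortic valve the contractile genes divided. ACTA2 was 133, 198.4 and 264.2 CPM in Ctrl, 293, 371 and 494 in CHT, 171.8, 232.4 and 358 in Lard and 265.4, 394 and 606 in IR/CHT. All CHT and all IR/CHT libraries lay above every Ctrl library, as in 4.71% and 12.2% of all genes. It rose by 0.996 ± 0.21, edgeR adjusted p = 0.00123, in CHT, or 1.99-fold, and by 1.10 ± 0.20, edgeR adjusted p = 5.57e-05, in IR/CHT, or 2.15-fold. MYH11 was 131, 191.9 and 515 CPM in Ctrl, 113, 401 and 539 in CHT, 57.0, 88.4 and 1279 in Lard and 451, 822 and 1969 in IR/CHT. In IR/CHT 6 of 7 libraries exceeded the highest Ctrl library, whereas in Lard 6 of 7 lay below the lowest Ctrl library and 1, L543, stood far above. MYH11 rose in IR/CHT (1.79 ± 0.61, edgeR adjusted p = 0.0169) and did not pass in CHT (0.22 ± 0.61, edgeR adjusted p = 0.821) or Lard (-0.19 ± 0.59, edgeR adjusted p = 0.864), where the value without L543 was -1.71 (edgeR adjusted p = 0.0802).

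MYOCD, LMOD1 and SMTN went the other way in IR/CHT. MYOCD was 9.89, 24.5 and 33.9 CPM in Ctrl, 12.0, 20.5 and 22.7 in CHT, 12.9, 20.2 and 44.8 in Lard and 4.99, 9.06 and 11.3 in IR/CHT, a log2 change of -1.32 ± 0.27, edgeR adjusted p = 0.00019, in IR/CHT. The highest IR/CHT library, at 11.3 CPM, lay just below the lowest CHT library, at 12.0 CPM. The share of all genes that separate IR/CHT from CHT in this way was not computed. LMOD1 was 32.0, 68.8 and 185.7 CPM in Ctrl, 13.3, 37.7 and 81.5 in CHT, 23.3, 73.4 and 114 in Lard and 11.1, 21.4 and 50.4 in IR/CHT (-1.90 ± 0.47, edgeR adjusted p = 0.00171), with 6 of 7 IR/CHT libraries below every Ctrl library. SMTN was 38.8, 170 and 482 CPM in Ctrl, 17.2, 66.4 and 115 in CHT, 35.2, 66.5 and 235.8 in Lard and 28.9, 42.1 and 92.0 in IR/CHT (-1.86 ± 0.54, edgeR adjusted p = 0.00612), where the groups overlapped. In CHT the values were -1.67 ± 0.57, edgeR adjusted p = 0.0503, for SMTN, -1.16 ± 0.49, edgeR adjusted p = 0.109, for LMOD1 and -0.26 ± 0.27, edgeR adjusted p = 0.525, for MYOCD, none of which passed.

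All 5 were thus called in IR/CHT aortic valves, 2 higher beside 21.1% of all genes and 3 lower beside 21.7%, and all 5 calls held in each refit that left out 1 library, with plate as a covariate and without the 7 discordant libraries. In CHT 1 was called, beside 11.9% of all genes, and SMTN joined it without the Ctrl library L277 (-1.81), the 1 discordant library of the aortic valve. SMTN also passed without Ctrl library L182 (-1.80) or L198 (-1.77), Lard library L232 (-1.67), or CHT library L244 (-1.87) or L151 (-1.91), and without L151 LMOD1 did too (-1.51). With Lard edgeR called 0 of 5, beside 0.234% of all genes, with 0 at an unadjusted p under 0.05 and 0 by DESeq2.

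Within a plate the 2 directions kept their sign and the calls were fewer. On plate 1, IR/CHT against Ctrl was 1.47 for ACTA2 and 3.06 for MYH11, both called, and -1.05 for LMOD1, -0.62 for MYOCD and -1.93 for SMTN, none of them called. On plate 2 it was -2.56 for LMOD1 and -1.71 for MYOCD, both called, and 0.70 for ACTA2, 0.80 for MYH11 and -1.89 for SMTN, none called. For CHT against Ctrl on plate 1, ACTA2 was called at 1.196, and MYOCD was 0.43, of the opposite sign to the value over both plates.

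Against CHT, MYOCD was lower in IR/CHT in the aortic valve as well. The log2 change in IR/CHT was -1.07 ± 0.27, edgeR adjusted p = 0.00543, the only edgeR call among the 5 beside 19.7% of all genes (DESeq2 called 2), and on plate 1 alone it was -1.05, also called. MYH11 was 1.57 ± 0.64, edgeR adjusted p = 0.0772; it passed on plate 1 (1.86) and without the Lard library L543 (1.59, edgeR adjusted p = 0.00531), which belongs to neither group but to the same fit. ACTA2 differed by 0.11 ± 0.21, SMTN by -0.19 ± 0.55 and LMOD1 by -0.73 ± 0.48, none of which passed.

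The difference between ACTA2 and MYOCD was larger in IR/CHT than in Ctrl aortic valves. Within a library, log2 ACTA2 minus log2 MYOCD (prior count of 2) had a median of 3.07 in Ctrl, 4.40 in CHT, 3.28 in Lard and 5.45 in IR/CHT aortic valves, and the Ctrl range of 2.23 to 3.87 did not meet the IR/CHT range of 5.05 to 6.27. In mitral valves the medians were 3.15, 4.59, 4.02 and 5.40 in the same order, and the lowest IR/CHT library (4.38) lay just above the highest Ctrl library (4.33). In the aorta, where both genes fell in IR/CHT, the medians were 4.68, 4.70, 4.74 and 4.66. In the other two valves the groups overlapped, with medians of 3.30, 3.89, 3.28 and 4.31 in the pulmonary and -0.42, 0.70, 0.63 and 1.22 in the tricuspid valve. Both pairs were chosen with the directions of their genes known, and the other, log2 MYH11 minus log2 LMOD1, had medians of 1.79, 3.13, 1.13 and 5.36 in the aortic, 0.81, 3.74, 0.18 and 3.75 in the mitral and 5.63, 5.89, 5.63 and 5.02 in the aorta, in the order Ctrl, CHT, Lard and IR/CHT.

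**Figure D4:**
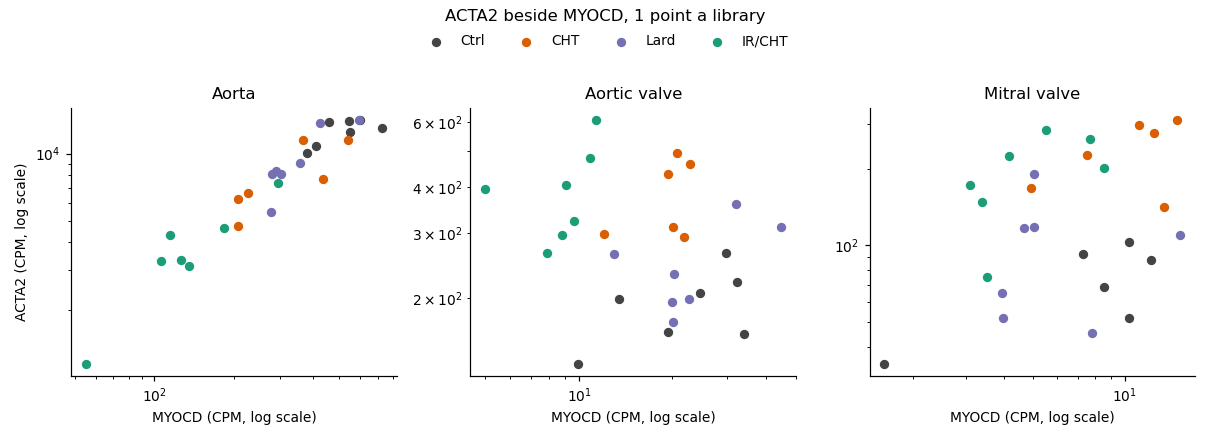
ACTA2 against MYOCD, both in CPM on log axes, 1 point a library and 1 panel per tissue, coloured by treatment. In the aorta the IR/CHT points slide down along the line of the Ctrl points (median difference 4.66 against 4.68 on the log2 scale), and in the aortic valve they lie above and to the left of them (5.45 against 3.07).

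Around the 5 genes, the filament and regulator lists of the aortic valve held calls in both directions in IR/CHT, at shares not far from the 21.1% of all genes called higher and 21.7% called lower. Of 15 filament genes 2 rose, ACTG2, the gamma-actin of smooth muscle (3.53 ± 0.37), and ACTN1, an alpha-actinin (0.73 ± 0.14), and 5 fell, among them SVIL (-1.13 ± 0.15) and SYNPO2 (-1.45 ± 0.22). In CHT, ACTG2 rose (1.78 ± 0.35) and DES, desmin, fell (-3.48 ± 0.68). Of 19 regulators 4 rose and 6 fell in IR/CHT: RHOA (1.28 ± 0.18), the guanylate cyclase subunit GUCY1B1 (1.51 ± 0.29) and the angiotensin receptor AGTR1 (2.72 ± 0.86) were among the first, and PRKG1 (-2.53 ± 0.17), PPP1R12B (-0.82 ± 0.12) and the calcium channel CACNA1C (-1.28 ± 0.21) among the second. Of the 10 SRF and myocardin control genes 6 fell, MRTFB (-0.68 ± 0.10), TEAD1 (-1.01 ± 0.17) and KLF5 (-0.94 ± 0.16) among them, with a list median of -0.70 against -0.055 over all genes. On the modulated smooth muscle list 6 of 14 rose in IR/CHT, led by LGALS3 (4.33 ± 0.37), SPP1 (4.17 ± 0.43) and S100A4 (2.01 ± 0.22), all of which macrophages can make, and MYH10 (-1.21 ± 0.22) and TCF21 (-1.49 ± 0.50) fell.

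Heart muscle, macrophage, mural cell and adipocyte markers moved with the treatments in the aortic valve. The 11 heart muscle genes summed to 213 to 13088 CPM in Ctrl, 20.9 to 379.6 in CHT, 30.5 to 262.2 in Lard and 33.5 to 283 in IR/CHT, and 8 fell in CHT, 5 in Lard and 9 in IR/CHT, where 3.48%, 0.208% and 21.7% of all genes were called lower. The Lard calls were lost with the 2 groups alone and on either plate alone, where edgeR called 0 of all genes, and it called 2 without the discordant libraries. With Lard LMOD1 was -0.41 ± 0.46, SMTN -0.89 ± 0.53 and MYOCD 0.075 ± 0.26, and none was called. Heart muscle sums of IR/CHT and CHT valves overlapped. Macrophage markers summed to 207 to 652 CPM in Ctrl, 923 to 1359 in CHT and 2522 to 3107 in IR/CHT, with 7 of 12 and 10 of 12 called higher, beside 8.42% and 21.1% of all genes, and none at 0. The 9 mural cell markers summed to 583 to 1163 CPM in Ctrl, 397 to 805 in CHT, 604 to 1142 in Lard and 260.7 to 711 in IR/CHT, with up to 2 of the 9 at 0 in a library, and of 7 tested 1 fell in CHT and 3 fell and 1 rose in IR/CHT. The 5 adipocyte markers summed to 6.70 to 82.9 CPM in Ctrl, 44.1 to 89.3 in CHT, 3.10 to 20.5 in Lard and 114 to 1018 in IR/CHT, with up to 4 of the 5 at 0, and of 2 tested LPL, a lipase that macrophages also make, rose (3.65 ± 0.60) and ADIPOQ, adiponectin, fell (-2.53 ± 1.04) in IR/CHT. Their part in the changes of the contractile genes was not tested.

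**Figure D5:**
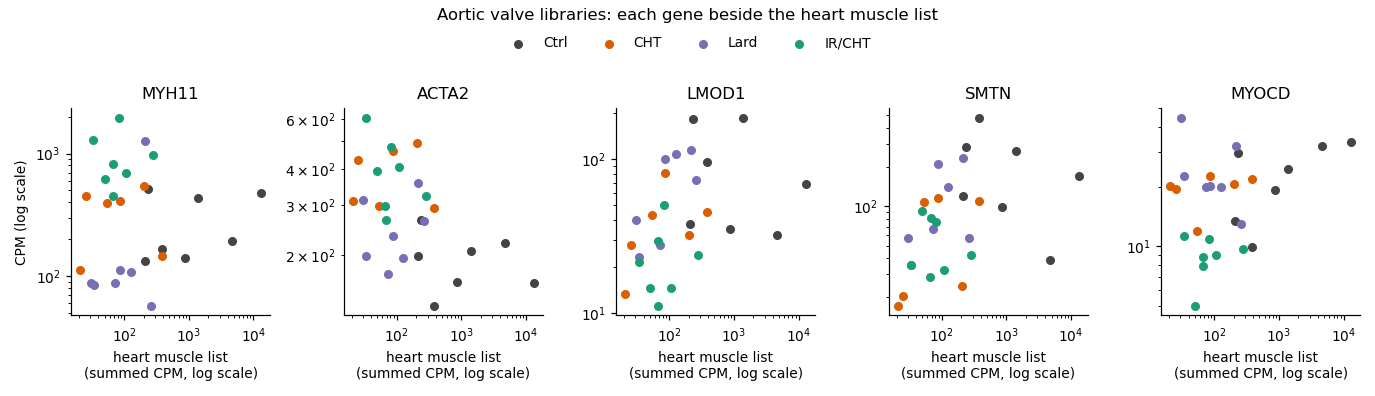
CPM of each of the 5 genes (y axis, log scale) against the summed CPM of 11 heart muscle genes (x axis, log scale) in the 27 aortic valve libraries, coloured by treatment. Ctrl libraries spread from 213 to 13088 CPM of heart muscle genes, and the treated groups lie at or below 379.6 CPM. The part of heart muscle in the levels of the 5 genes was not tested.

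In the mitral valve MYH11 and ACTA2 rose and the other 3 genes were not called. MYH11 was 23.5, 36.6 and 55.0 CPM in Ctrl, 133, 312 and 755 in CHT, 23.4, 36.5 and 67.3 in Lard and 48.9, 226 and 711 in IR/CHT. Every CHT library stood above every Ctrl library, as in 2.92% of all genes, 6 of 7 IR/CHT libraries did, and the Lard and Ctrl libraries overlapped. MYH11 rose by 3.32 ± 0.49, edgeR adjusted p = 4.13e-05, in CHT, or 10.01-fold, and by 2.85 ± 0.47, edgeR adjusted p = 5.8e-05, in IR/CHT, or 7.21-fold. ACTA2 was 34.4, 78.1 and 103 CPM in Ctrl, 142, 250.98 and 309 in CHT, 45.4, 109.8 and 189.6 in Lard and 75.3, 200.7 and 282 in IR/CHT. Again all CHT and 6 of 7 IR/CHT libraries exceeded the Ctrl range, with rises of 1.70 ± 0.34, edgeR adjusted p = 0.00147, in CHT and 1.43 ± 0.33, edgeR adjusted p = 0.00191, in IR/CHT.

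The 2 calls in CHT stood beside 4.98% of all genes called higher and the 2 in IR/CHT beside 11.1%, and all 4 held in each refit that left out 1 library. On plate 1 the CHT changes were 3.50 for MYH11 and 1.83 for ACTA2, and the IR/CHT changes 3.35 and 1.60, all called. On plate 2, which held 2 Ctrl libraries, MYH11 was called in IR/CHT (2.01) and ACTA2 was not (1.18, edgeR adjusted p = 0.0983). LMOD1 ranged from -0.14 to 0.30 over the 3 treatments, SMTN from -0.065 to 0.076 and MYOCD from -0.69 to 0.37. With Lard edgeR called 0 of 5, beside 0% of all genes, with 0 at an unadjusted p under 0.05 and 0 by DESeq2. Against CHT, IR/CHT gave 0 calls of 5 in edgeR, beside 0.189% of all genes, with 1 at an unadjusted p under 0.05, MYOCD (-1.06 ± 0.38, edgeR adjusted p = 0.236), and 0 by DESeq2.

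ACTG2 rose with the 2 genes in the mitral valve, by 3.01 ± 0.46 in CHT and 2.67 ± 0.44 in IR/CHT, and was the only 1 of the 15 filament genes to do so; SYNPO2 fell in IR/CHT (-0.64 ± 0.15). ACTG2 and ACTA2 are near-identical in sequence, so the 2 values may not be independent, and the sharing of reads was not tested. Among the 19 regulators, GUCY1B1 (0.91 ± 0.23) and MRVI1 (0.90 ± 0.27), 2 genes of nitric oxide signalling, rose in CHT, beside 4.98% of all genes called higher. PRKG1 (-0.83 ± 0.14) and KCNMA1 (-1.21 ± 0.22) fell in IR/CHT, where 2715 of 15322 genes were called, 1696 of them higher. Macrophage markers summed to 237.6 to 709 CPM in Ctrl, 687 to 1319 in CHT and 955 to 1844 in IR/CHT, with 9 and 10 of 12 called higher, beside 4.98% and 11.1% of all genes, and none at 0. Heart muscle sums overlapped, at 194.6 to 2575 CPM in Ctrl, 241.3 to 4553 in CHT and 308 to 2801 in IR/CHT, and endothelial sums did as well. Mural cell markers were 294 to 672 CPM in Ctrl and 345 to 586 in CHT, where 1 of 7 tested rose.

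The responses of the aorta and the left-sided valves were compared directly, with the rabbit as a block, as the log2 change in the valve minus that in the aorta. For ACTA2 this difference was 1.61 ± 0.37, edgeR adjusted p = 0.0103, between aortic valve and aorta in CHT and 2.73 ± 0.37, edgeR adjusted p = 4.13e-06, in IR/CHT. Between mitral valve and aorta it was 2.504 ± 0.47, edgeR adjusted p = 0.00204, in CHT and 3.23 ± 0.46, edgeR adjusted p = 3.54e-05, in IR/CHT. MYH11 differed by 3.40 ± 0.58, edgeR adjusted p = 8.08e-05, for the aortic valve in IR/CHT, by 4.13 ± 0.59, edgeR adjusted p = 0.000193, for the mitral valve in CHT and by 4.06 ± 0.57, edgeR adjusted p = 2.86e-05, for the mitral valve in IR/CHT. For LMOD1, SMTN and MYOCD no difference of response passed, the nearest being MYOCD in the mitral valve in IR/CHT (1.35 ± 0.49, edgeR adjusted p = 0.0687).

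Beside these calls, 6.86% of all genes differed in response between aortic valve and aorta in CHT, 1.44% in Lard and 35.3% in IR/CHT, and 5.81%, 0.075% and 13.9% between mitral valve and aorta. With Lard edgeR called 0 of 5 in either pair, with 1 at an unadjusted p under 0.05 in the aortic valve pair, ACTA2 (0.76 ± 0.36), and 0 in the mitral valve pair; DESeq2 was not run on these. The calls held without the block and without the 7 discordant libraries. Aorta came from plate 2 alone and the left-sided CHT valves from plate 1 alone, so among the CHT libraries of this comparison the plate and the tissue cannot be told apart.

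In the pulmonary and tricuspid valves edgeR called no contractile gene in any treatment, and 1 library set the largest values. In the pulmonary valve MYH11 was 72.0, 133 and 684 CPM in Ctrl, 51.4, 70.5 and 117 in CHT, 55.6, 109.8 and 212 in Lard and 57.8, 209 and 17326 in IR/CHT. The highest library, L176, also held 2004 CPM of ACTA2, 314 of LMOD1, 139.9 of SMTN and 87.9 of MYOCD, above all other pulmonary valve libraries in each gene. With it, IR/CHT against Ctrl was 3.43 ± 1.04, edgeR adjusted p = 0.13, for MYH11 and 1.49 ± 0.47, edgeR adjusted p = 0.137, for ACTA2, and without it 0.44 and 0.65. LMOD1 went from 1.58 ± 0.48 to 0.51, SMTN from 1.502 ± 0.43 to 0.81 and MYOCD from 0.61 ± 0.49 to -0.10.

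In IR/CHT against Ctrl edgeR called 0 of 5 in the pulmonary valve, beside 0.706% of all genes, with 4 at an unadjusted p under 0.05 and 3 called by DESeq2 with L176 included, and against CHT 0 of 5, beside 0.0761%, with 4 and 2. In CHT it called 0 of 5, beside 0.159%, and in Lard 0 of 5, beside 0%, with 0 at an unadjusted p under 0.05 and 0 by DESeq2 in both.

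In the tricuspid valve MYH11 was 43.9, 49.1 and 97.8 CPM in Ctrl, 21.1, 28.4 and 42.1 in CHT, 33.4, 49.8 and 156.1 in Lard and 14.0, 23.1 and 50.6 in IR/CHT, and the CHT libraries lay below all Ctrl libraries, as in 0.102% of all genes, whereas the Lard and IR/CHT ranges overlapped with Ctrl. The log2 changes, -1.01 ± 0.33, edgeR adjusted p = 0.484, in CHT and -1.08 ± 0.31, edgeR adjusted p = 0.227, in IR/CHT, did not pass over all genes. In the tricuspid valve edgeR called 0 of 5 in CHT (beside 0.163% of all genes), in IR/CHT (0.231%), in Lard (0%) and in IR/CHT against CHT (0%), with 1, 1, 1 and 0 at an unadjusted p under 0.05 and 0 by DESeq2. The Ctrl library L168 held the highest ACTA2 (114 CPM), LMOD1 (67.4) and SMTN (209) of its group, and without it and the other discordant libraries SMTN in CHT went from -1.36 to 0.19 and LMOD1 from -0.27 to 0.70.

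The 5 genes varied together to unequal degrees from library to library. After the mean of each treatment was removed, Pearson's r over the 27 aorta libraries was 0.942 between MYH11 and ACTA2, 0.876 between ACTA2 and MYOCD, 0.858 between MYH11 and MYOCD, and 0.727 between LMOD1 and SMTN. LMOD1 was at 0.611 with MYH11, 0.530 with MYOCD and 0.501 with ACTA2, and SMTN at 0.280 with MYH11, 0.133 with MYOCD and 0.0708 with ACTA2. In the valves LMOD1 and SMTN were at 0.736 to 0.804. The tricuspid value included the discordant libraries L168 and L197, and the pulmonary value included L176, all high in both genes. No correlation was computed without these or the other discordant libraries. The pairs ran from -0.233 for MYOCD with SMTN upward in the aortic valve, from 0.209 in the mitral, from 0.302 in the pulmonary and from -0.456 for MYOCD with LMOD1 in the tricuspid valve. These values describe libraries that share a tissue and, across tissues, a rabbit, and no test was made of them.

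Over all libraries, the genes with a symbol whose log2 CPM was most like the mean of the 5 were MYL9, the regulatory light chain of smooth muscle myosin (r = 0.977), MRVI1 (0.971), Tpm2, a tropomyosin (0.964), CSRP1, a LIM protein of smooth muscle (0.959), and the microRNA gene ocu-mir-145 (0.958). Of the 13335 genes with a mean over 1 CPM, those without a symbol were left out of the ranking. Once each tissue-by-treatment mean was subtracted they were MYL9 (0.761), MRVI1 (0.717), SVIL, which binds actin and myosin (0.687), the laminin receptor subunit ITGA7 (0.650) and CSRP1 (0.643).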

How the data were processed

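RNA of an aorta ring and 4 heart valves was sequenced in 134 libraries from 27 rabbits (Pico Input version 2 of the SMARTer stranded kit for total RNA; NovaSeq). The deposited values are whole read counts per gene, which the authors made with nf-core/rnaseq 1.4.2 on OryCun2.0 with Ensembl release 99 annotation, and bcl2fastq 2.20 is named in the submitters' processing notes. Per the authors the pipeline ran at its defaults apart from trimming of read ends. No strand setting is named, so overlapping or antisense genes could share reads. Genes were taken by the symbol in the table, and no coordinates were used. Counts of genes with enough reads (filterByExpr) were tested with edgeR 4.0.16 in R 4.3.3 (TMM, robust quasi-likelihood fit), in 1 fit of 4 groups per tissue, 1 fit of the Ctrl libraries with rabbit as a block, and 1 fit of valve with aorta per pair with rabbit as a block. Standard errors are the log2 fold change divided by the root of F. CPM used TMM over all 134 libraries and log2 CPM a prior count of 2. The threshold was an adjusted p under 0.05 with a fold change over 1.5, or the adjusted p alone for the difference of responses.

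The rabbit is the number at the start of the column names. The deviations of aortic valve and aorta libraries from their group means correlated at a median of 0.261 within a rabbit and 0.00948 between rabbits, and for mitral valve and aorta at 0.31 and -0.0133. No 2 libraries of a group agreed within sampling noise (lowest chi-square per degree of freedom 12.8 over 384 pairs). Alternatives were DESeq2 1.42.0 on the counts, DESeq2 size factors, library totals, no filter, the 2 groups alone, plate, and each library left out. Self-tests on simulated counts were run first. The 5 genes and all gene lists were chosen with earlier results of these data known. Named genes of other lists are at most 3 a direction, those with the smallest p, except 1 gene that is not reported here, and the 2 comparisons of aortic with tricuspid and mitral with pulmonary valve, and the fits without named libraries, were added after the values were seen.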

Additional observations from a re-analysis of the deposited data

Results flagged for a closer look

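Of 100 groups of 1 gene in 1 tissue and treatment, 19 held a library whose gap to its neighbour was over Dixon's 95% limit. By its rule the limit flags about 1 in 20, or 5, of independent groups of normal values. The CPM were not transformed and the groups share libraries, so 5 is not a chance level for these data. The IR/CHT pulmonary valve library L176 stood apart in 4 genes, with 17325.5 CPM of MYH11 (group median 209), 2004 of ACTA2, 314 of LMOD1 and 87.9 of MYOCD. The Ctrl tricuspid valve library L168 did in 3, with 114 CPM of ACTA2, 67.4 of LMOD1 and 209 of SMTN. The IR/CHT tricuspid valve library L197 held 58.1 CPM of LMOD1 and 118 of SMTN, and both L168 and L197 were among the 7 discordant libraries. The Ctrl pulmonary valve library L263 held 398 CPM of ACTA2 and 40.4 of MYOCD, and the IR/CHT mitral valve library L179 held 711 CPM of MYH11 and 183.99 of SMTN. In the aortic valve, Lard library L543 held 1279 CPM of MYH11 and CHT library L265 was low in MYOCD at 12.0 CPM. The others were MYOCD in CHT tricuspid valve L268 (57.9 CPM) and Lard mitral valve L544 (15.3 CPM), LMOD1 in Ctrl mitral valve L262 (45.6 CPM), and SMTN in CHT tricuspid valve L172 (47.9 CPM).

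The log2 response differed between a valve and the aorta in 7 tests by edgeR. For ACTA2 the difference was 1.61 in CHT and 2.73 in IR/CHT for the aortic valve, and 2.50 and 3.23 for the mitral valve. For MYH11 it was 3.40 in IR/CHT for the aortic valve, and 4.13 in CHT and 4.06 in IR/CHT for the mitral valve.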

How the results depend on the processing

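Over the alternatives other than leaving out a library, 1128 of the values of single genes kept their direction and their side of the threshold, 19 came to pass it, 15 no longer passed and 43 changed sign, all of them values that were not called; no call changed direction. The cause of these changes was not tested. With DESeq2, the log2 change of opposite sign was SMTN 0.0049 (Lard) in the mitral valve. With DESeq2 size factors, the log2 change of opposite sign was SMTN 0.0037 (Lard) in the mitral valve. Without the 7 discordant libraries, the log2 changes of opposite sign were LMOD1 0.025 (Lard) in the pulmonary valve and LMOD1 0.70 (CHT), LMOD1 -0.0017 (IR/CHT against CHT), LMOD1 0.34 (Lard), MYH11 -0.16 (Lard), SMTN 0.19 (CHT), SMTN 0.37 (IR/CHT) in the tricuspid valve. Without L176, the log2 change of opposite sign was MYOCD -0.10 (IR/CHT) in the pulmonary valve. With library totals only, the log2 changes of opposite sign were ACTA2 -0.011 (IR/CHT against CHT) in the aortic valve, MYH11 0.025 (IR/CHT against CHT) in the tricuspid valve and SMTN 0.011 (Lard) in the mitral valve. With no filter on low counts, the log2 changes of opposite sign were LMOD1 0.025 (Lard) in the difference of response between aortic valve and aorta and MYH11 0.0095 (Lard), SMTN 0.0067 (Lard) in the mitral valve. Without the rabbit block, the log2 change of opposite sign was MYH11 0.15 (Lard) in the difference of response between aortic valve and aorta. On plate 1 alone, the log2 changes of opposite sign were LMOD1 -0.18 (Lard), SMTN -0.15 (IR/CHT) in the mitral valve, LMOD1 0.82 (CHT), LMOD1 -0.24 (IR/CHT against CHT), MYH11 0.056 (IR/CHT against CHT), MYH11 -0.30 (Lard), SMTN 0.36 (CHT), SMTN -0.50 (IR/CHT against CHT) in the tricuspid valve, MYOCD 0.43 (CHT) in the aortic valve and MYOCD 0.031 (CHT) in the pulmonary valve. On plate 2 alone, the log2 changes of opposite sign were ACTA2 -0.0073 (Lard), LMOD1 0.14 (IR/CHT), SMTN 1.63 (Lard) in the mitral valve, ACTA2 0.16 (Lard), LMOD1 -0.085 (IR/CHT against CHT), LMOD1 0.024 (Lard), MYH11 -0.97 (IR/CHT), MYOCD -0.18 (IR/CHT), SMTN 0.0040 (CHT) in the pulmonary valve, ACTA2 -0.73 (CHT), ACTA2 -0.56 (IR/CHT), LMOD1 -0.34 (IR/CHT), MYOCD 0.21 (CHT) in the tricuspid valve and MYOCD -0.49 (Lard) in the aortic valve. With plate as a covariate, the log2 changes of opposite sign were LMOD1 0.10 (CHT) in the tricuspid valve and SMTN 0.14 (Lard) in the mitral valve. Left out 1 library at a time, uncalled changes that took both signs were ACTA2 in the aortic valve -0.0018 to 0.18 (IR/CHT against CHT), LMOD1 in the mitral valve -0.35 to 0.24 (IR/CHT), MYH11 in the aortic valve -1.71 to 0.019 (Lard), MYH11 in the mitral valve -0.22 to 0.12 (Lard), MYOCD in the aortic valve -0.14 to 0.19 (Lard), SMTN in the aortic valve -0.43 to 0.025 (IR/CHT against CHT), SMTN in the mitral valve -0.31 to 0.44 (CHT), SMTN in the mitral valve -0.38 to 0.38 (IR/CHT against CHT), SMTN in the mitral valve -0.42 to 0.58 (IR/CHT) and SMTN in the mitral valve -0.30 to 0.49 (Lard).

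Counts of the 5 genes called moved as follows. In IR/CHT against Ctrl of the aortic valve the count of 5 was 2 on plate 1 alone and 2 on plate 2 alone, and in the mitral valve the count of 2 was 1 on plate 2 alone. In CHT against Ctrl of the aortic valve the count of 1 was 2 with DESeq2, with DESeq2 size factors and without the 7 discordant libraries. In IR/CHT against CHT, the count of 1 in the aorta was 2 with DESeq2, 0 with no filter and 0 with the 2 groups alone, and the count of 1 in the aortic valve was 2 with DESeq2, on plate 1 alone and with the 2 groups alone. In the pulmonary valve DESeq2 called 3 in IR/CHT against Ctrl and 2 against CHT where edgeR called 0, and in the tricuspid valve 1 was called in IR/CHT against Ctrl on plate 1 alone. Between the mitral and tricuspid valves on chow the count of 2 was 4 without the 7 discordant libraries and 1 without the rabbit block, and the block changed no other count by over 1.5 times. Leaving out 1 library gave 2 to 5 called in the aorta in CHT (5 without CHT library L560), 0 to 3 in IR/CHT against CHT (3 without IR/CHT library L579), 1 to 3 in the aortic valve in CHT (3 without CHT library L151) and 1 to 2 in IR/CHT against CHT. In the pulmonary and tricuspid valves and in the comparisons of tissues, single libraries were not left out in turn. Depth limits MYOCD most in the mitral valve, where the lowest Ctrl library held 32 of its read pairs. Counts over all genes moved by over 1.5 times in several comparisons. In the aorta 386 genes were called with Lard, against 0 with the 2 groups alone and 692 by DESeq2, and 0.596% of genes in IR/CHT against CHT, against 0.171%, 0.207% with no filter and 2.27% by DESeq2. In the aortic valve 1833 genes were called in CHT, against 1154 with the 2 groups alone, 1125 with plate as a covariate and 826 on plate 1 alone. With Lard it was 36, against 0 with the 2 groups alone and 118 by DESeq2, and in IR/CHT 6587, against 3372 on plate 2 alone. In the mitral valve 2715 were called in IR/CHT, against 1115 on plate 2 alone, and 29 in IR/CHT against CHT, with 0 to 149 over the alternatives. In the pulmonary and tricuspid valves, where edgeR called 0 to 102, the alternatives gave 0 to 466. Between valves on chow DESeq2 called 2558 where edgeR called 1653 (mitral and tricuspid, 820 without the block and 4180 without the 7 discordant libraries), 1872 where it called 550 (aortic and mitral, 3795 without those libraries) and 2511 where it called 1510 (pulmonary and tricuspid). On plate 2 alone and without the block, 2832 genes differed between mitral valve and aorta, against 5384, and 2998 between pulmonary valve and aorta, against 6063. The response of 6.86% of genes differed between aortic valve and aorta in CHT, against 2.12% with no filter and 15.9% without those libraries, and in Lard 1.44%, against 2.33% without the block, 0.299% and 6.9%. Between mitral valve and aorta in Lard it was 12 genes, against 132 without the block and 2 with no filter.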
